A study of Mus musculus with 3 samples.

Results

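The 9 cathepsin genes Ctsa, Ctsb, Ctsc, Ctsd, Ctsh, Ctsk, Ctsl, Ctss and Ctsz were followed in ChIP-Seq with an antibody to Pol_II that carries a phosphate on Ser5 of the tail of its largest subunit, in macrophages grown from mouse bone marrow. They were chosen by name as lysosomal cathepsins, with earlier results of these data known. They are not the whole family, and 14 other cathepsin genes were counted apart. The 9 are among the 22350 protein-coding genes of chromosomes 1 to 19 and X in GENCODE M1, a gene annotation of the mouse genome mm9. The cells came from the marrow of female Fvb mice (Fvb/Hsd in the methods of the study) and were taken at day 7 of differentiation in culture. There were 3 libraries, 1 each of Ser5 from untreated cells, Ser5 from cells given 10 ng/ml LPS (lipopolysaccharide of Gram-negative bacteria, which activates macrophages) for 2 h, and input (the chromatin of untreated cells sequenced as it was, with no antibody step). By its sample label the stimulated library had LPS as its only agent, whereas lettering in a figure of the paper adds γIFN, and which holds could not be settled here. The Ser5 libraries used the Abcam antibody ab5131. No group had a second library, the labels do not say how many mice gave the cells, and there was no input from LPS-treated cells.

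Cathepsins are proteases of the lysosome, the acidic compartment in which macrophages digest what they take up. They are made as inactive precursors, tagged with mannose 6-phosphate, carried to the lysosome by receptors and activated there, in part by each other and by legumain. They are grouped by the residue that cuts the peptide bond: aspartic (Ctsd), serine (Ctsa) and cysteine proteases (Ctsb, Ctsc, Ctsh, Ctsk, Ctsl, Ctss and Ctsz). Pol_II with Ser5 phosphorylated is most abundant where transcription starts and is also found along genes that are being transcribed.

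On these chromosomes the untreated Ser5 library held 7616771 tags, the LPS library 6249819 and the input 7533308. The 5′ ends of the tags were counted in the gene body (the whole gene record), in the TSS window (1 kb on each side of the transcription start site) and in the flank (5 kb past the 3′ end), and a density is given as TPM per kb, in which TPM are tags per 1000000 tags of these library totals. A gene is called lower or higher after LPS when the ratio of LPS to untreated was at least 2 times away from 1 and the Ser5 libraries together held at least 10 tags. With 1 library per condition no test could be made. Every interval is an exact 95% interval of counting error only, and says nothing of the spread between cultures. The tags were 45 bases long in the untreated, 30 in the LPS and 36 in the input library. The supplementary methods of the study give the order of both Ser5 libraries the other way round. All 7 LPS response genes counted as a check (Ccl5, Tnf, Il1b, Cxcl10, Il6, Nfkbia and Ifit1) were at least 2 times higher in the library labelled LPS, from 6.17 times at Nfkbia to 396 times at Ccl5. All 7 macrophage marker genes, among them Csf1r, Cd68 and Lyz2, were at least 2 times over input in untreated cells, at 1.94 to 105 TPM per kb. Of the T cell, B cell, neutrophil and fibroblast markers, 2 of 17 were at least 2 times over input there, Lck at 1.62 and Ngp at 0.523 TPM per kb. Lck held 312 untreated tags over its body but 1 in its TSS window. Whether its body tags came from another gene was not tested. Ngp held 13 untreated tags, against 5 in the input.

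The cathepsin genes took different courses after LPS. Ctsd, Ctsa and Ctsb, which ranked 111th, 164th and 92nd of all 22350 genes by body density in untreated cells, were 6.31, 4.32 and 2.71 times lower after LPS. Ctsc, the gene of dipeptidyl peptidase I, which activates the serine proteases of immune granules, was 7.08 times higher and went from rank 2613 to rank 190. Ctsz, Ctsl, Ctss, Ctsh and Ctsk stayed within 2 times of their untreated level over the gene body, and 2 of them, Ctsh and Ctsk, held body densities within 2 times of the input by library totals. By the same rule 11.3% of the 17386 protein-coding genes tested were lower over the gene body and 5.83% were higher, against 3 and 1 of the 9 cathepsin genes. The median ratio was 0.593 over the 9 and 0.874 over all genes tested, and 7 of the 9 lay below 1, where 63.4% of all genes lay. The ratios of the 9 were spread widely around their median, with 0.231 as the second lowest and 1.19 as the second highest. Without the first kb of each gene the median of the 9 was 0.840, and no value over all genes is given beside it. In a bulk culture, fewer cells with Pol_II on a gene and less Pol_II per cell cannot be told apart. Of the 7 macrophage marker genes 4 were lower after LPS too and 1 was higher, from 0.229 at Itgam to 3.01 at Emr1, the gene of F4/80, and their summed body density went from 214 to 129 TPM per kb. The part that such a shift has in the cathepsin values was not tested.

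The 200 bases upstream of the TSS are shown for Ctsd and Ctsb, the pair of members whose promoters hold the letters CACGTG, the core of the E-box that the MiT/TFE factors of lysosomal genes bind, and for Ctsc, the single member that was higher. They were read 5′ to 3′ on the strand of the gene from the mm9 genome. The motifs searched on both strands are in capitals, namely this E-box, the letters GGGCGG of the GC box bound by Sp1-type factors, the letters GAGGAAGT as a form of the PU.1 site of myeloid genes, and the letters TATAAA of the TATA box.
Ctsd, minus strand, chr7:149573944-149574143: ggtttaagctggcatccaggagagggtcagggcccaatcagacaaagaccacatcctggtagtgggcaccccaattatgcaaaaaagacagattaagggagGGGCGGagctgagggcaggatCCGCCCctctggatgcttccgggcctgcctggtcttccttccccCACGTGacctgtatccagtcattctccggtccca
Ctsb, plus strand, chr14:63741102-63741301: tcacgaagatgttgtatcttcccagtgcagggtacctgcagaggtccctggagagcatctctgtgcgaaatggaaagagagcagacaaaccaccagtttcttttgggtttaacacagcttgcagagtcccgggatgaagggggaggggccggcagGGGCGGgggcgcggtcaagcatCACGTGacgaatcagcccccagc
Ctsc, plus strand, chr7:95426395-95426594: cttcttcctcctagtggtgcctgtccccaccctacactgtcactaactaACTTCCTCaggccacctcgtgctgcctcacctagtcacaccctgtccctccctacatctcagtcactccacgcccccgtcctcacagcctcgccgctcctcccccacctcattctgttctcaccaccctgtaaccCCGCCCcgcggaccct
The E-box letters begin 34 bases before the TSS of Ctsd and 23 bases before that of Ctsb. They were present in 2 of 9 cathepsin promoters and in 5.57% of all 22350 promoters of this length. The letters GAGGAAGT lay on the opposite strand of Ctsc, 151 bases before its TSS, in 1 of 9 members and 2.00% of promoters. A GC box was present in 6 of 9 members (Ctsb, Ctsc, Ctsd, Ctsl, Ctss and Ctsz) and in 38.0% of promoters, and TATAAA in 0 of 9 and 10.0%. GC content ran from 46.5% at Ctss to 70.0% at Ctsl, around a median of 55.5% over all promoters. The 200 bases taken for Ctsa (164658173 to 164658372) lie inside the record of Neurl2 on the opposite strand (164656232 to 164658956). At Ctsa untreated Ser5 was highest in the bin of 500 bp centred 750 bp past this TSS. Its counts of letters thus hold for the start of the gene record only. The same limit applies to Ctsd, whose record starts at 149573943. Its longest coding transcript starts further into the gene, at 149573732, and the bases before that start were not searched separately. These are matches of letters, and binding of a factor was not measured here.

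**Figure D1:**
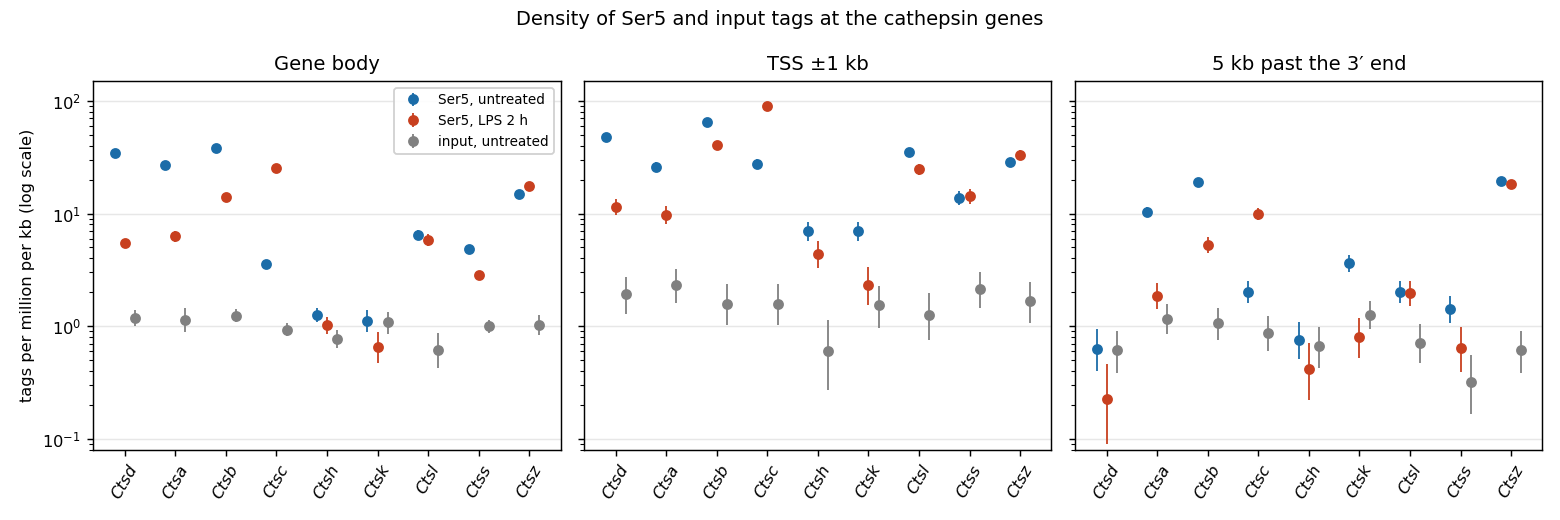
Density of tags (TPM per kb, log scale) at each cathepsin gene in the gene body, the TSS window and the 5 kb past the 3′ end, with 1 point per library and bars for the 95% counting interval. Over the gene body Ctsd, Ctsa and Ctsb are high in untreated cells and lower after LPS, Ctsc goes the other way, and Ctsh and Ctsk lie within 2 times of the input.

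Ctsd, the main aspartic protease of the lysosome, lies on the minus strand of chromosome 7 (149557053 to 149573943). Its body held 4459 tags in untreated Ser5, 580 after LPS and 151 in the input, which are 34.7, 5.49 and 1.19 TPM per kb. LPS over untreated gave a ratio of 0.159 (0.145 to 0.173), and only 0.581% of the genes tested had a lower one. The TSS window went from 47.8 to 11.4 TPM per kb (ratio 0.239, 0.199 to 0.287). In untreated cells the highest bins of 500 bp were the first of the gene, at 125 TPM per kb, and a second rise centred 13250 bp from the TSS, at 76.4, and after LPS the same bins held 34.9 and 13.1. The second rise lies past the end of the coding transcript: the record of Ctsd runs on for 4769 bp beyond it, and over these bases the density was 29.5 TPM per kb untreated and 4.26 after LPS (0.144, 0.119 to 0.174). Of the record 2606 bp are shared with 6330512M04Rik on the same strand. The flank, all of it inside 6330512M04Rik, held 24, 7 and 23 tags, or 0.630 and 0.224 TPM per kb against 0.611 in the input. Its ratio of 0.355 (0.129 to 0.850) depended on the window: it was 0.145 with the 5 kb counted from the end of the coding transcript, and 0.742, no longer called, with a flank of 10 kb.

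Ctsa, a serine carboxypeptidase that also protects the lysosomal enzymes Neu1 and Glb1 in a complex, lies on the plus strand of chromosome 2 (164658373 to 164666532). Its body held 1680, 319 and 70 tags, or 27.0 TPM per kb untreated, 6.26 after LPS and 1.14 in the input, a ratio of LPS to untreated of 0.231 (0.205 to 0.261). The TSS window was at 25.7 and 9.68 TPM per kb (0.376, 0.304 to 0.462) and the flank at 10.4 and 1.86 (0.178, 0.133 to 0.236). Ser5 was thus lower after LPS in every region. Neighbours on the opposite strand share parts of them: Neurl2 takes 1584 of the 2001 bp of the TSS window, and Pltp takes 1515 bp of the body and all of the flank. With the positions of other genes left out, the ratio over the body was 0.252. The highest bin of 500 bp in untreated cells was centred 750 bp past the TSS, at 74.6 TPM per kb (30.4 after LPS). The bin centred at 250 bp held 21.8 (5.76 after LPS). The TSS window was set by the start of the gene record, which lies upstream of this rise.

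Ctsb, a cysteine protease with both endopeptidase and carboxydipeptidase activity, lies on the plus strand of chromosome 14 (63741302 to 63764758). It had the highest body density of the 9 in untreated cells, 38.0 TPM per kb (6781 tags), against 14.0 after LPS (2050 tags) and 1.24 in the input (219 tags). The ratio was 0.368 (0.351 to 0.387) over the body but 0.615 (0.552 to 0.686) in the TSS window, where the densities were 65.3 and 40.2 TPM per kb. Ctsb was thus called lower over the body and not at the TSS. Untreated Ser5 had a second rise here too, at the 3′ end of the record, with 108 TPM per kb in the bin centred 23250 bp from the TSS against 28.5 after LPS. This bin lies in Fdft1 on the opposite strand, which shares 769 bp of the body, and the tags of both genes cannot be told apart there. The flank, which also lies in Fdft1, was at 18.9 and 5.28 TPM per kb (0.280, 0.235 to 0.332).

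The decrease at these 3 genes was not even along their length. Split into 4 segments of equal length from the 5′ end, Ctsa had ratios of LPS to untreated of 0.344 (0.287 to 0.411), 0.317, 0.134 and 0.133 (0.0966 to 0.179). For Ctsb they were 0.477 (0.440 to 0.518), 0.397, 0.274 and 0.286 (0.258 to 0.318). In both genes the interval of the last segment lay below that of the first. Ctsd was already at 0.210 (0.184 to 0.239) in the first segment and at 0.110, 0.131 and 0.151 (0.122 to 0.186) in the next ones. The density of the TSS window over that of the body beyond the first kb accordingly went from 1.07 to 2.10 at Ctsa, from 1.90 to 3.53 at Ctsb and from 1.52 to 2.55 at Ctsd, with intervals that did not overlap between the libraries. The median of this quotient over 14682 coding genes was 6.18 in untreated cells and 5.77 after LPS, so these 3 genes carried more of their Ser5 along the body than the median gene did in both libraries.

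**Figure D2:**
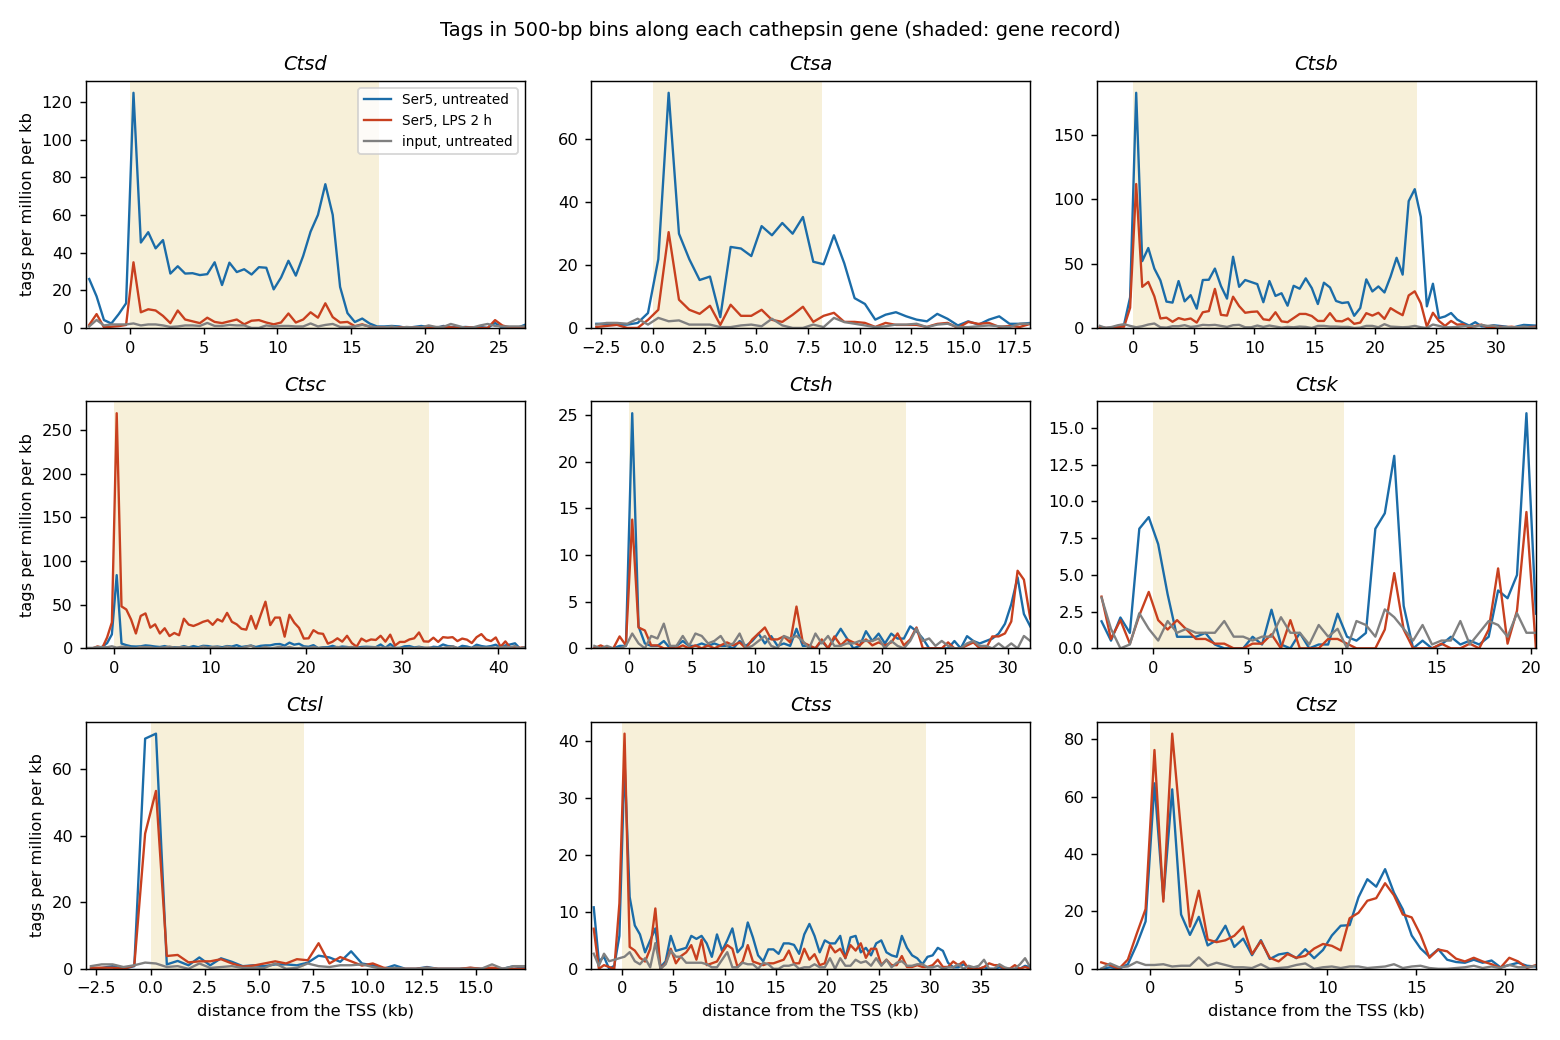
Density (TPM per kb) in bins of 500 bp from 3 kb upstream of the TSS to 10 kb past the 3′ end of each cathepsin gene, with the gene record shaded and 1 line per library. Ctsd and Ctsb show a rise at the TSS and another near the 3′ end in untreated cells, where Ctsb overlaps Fdft1. Ctsc is covered along its whole length after LPS, and Ctsl and Ctsh show little past the TSS within the gene record.

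Ctsc, a cysteine dipeptidyl peptidase, lies on the plus strand of chromosome 7 (95426595 to 95459398). Its body held 897 tags in untreated Ser5, 5214 after LPS and 231 in the input, or 3.59, 25.4 and 0.935 TPM per kb. The ratio was 7.08 (6.60 to 7.61), higher than that of 99.5% of the genes tested. The TSS window was already well occupied in untreated cells, at 27.8 TPM per kb (17.5 times the input), and reached 89.9 after LPS, a ratio of 3.23 (2.89 to 3.62). Beyond the first kb the body went from 2.30 to 21.2 TPM per kb, a ratio of 9.24 (8.45 to 10.1), and the interval lay above that of the TSS window. The density of the TSS window over that of the later body therefore dropped from 12.1 (10.6 to 13.8) to 4.23 (3.96 to 4.52), opposite to Ctsa, Ctsb and Ctsd. A drop was not particular to Ctsc, as it was also seen at Ctsl, Ctsk and Ctsh, which were not higher. At Ctsk the quotient went from 10.7 (7.47 to 15.5) to 4.24 (2.47 to 7.28). At Ctsh it went from 10.7 (8.07 to 14.1) to 6.39 (4.49 to 9.04), with overlapping intervals. By segments the ratio was 5.75, 13.5, 6.26 and 5.58, with the highest in the second (11.4 to 16.1), where untreated Ser5 was at 2.31 TPM per kb. The flank, with no other gene in it, went from 2.02 to 9.89 TPM per kb (4.89, 3.80 to 6.36). The lincRNA gene Gm17710 on the opposite strand covers 4743 bp of the body, and without these positions the ratio was 6.56.

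Ctsz, cathepsin X, a carboxypeptidase of the cysteine group, lies on the minus strand of chromosome 2 (174252994 to 174264540). Its body was at 14.9 TPM per kb untreated (1309 tags), 17.7 after LPS (1280 tags) and 1.03 in the input (90 tags), with a ratio of LPS to untreated of 1.19 (1.10 to 1.29). It thereby ranked 411th and 333rd of all genes, and after LPS it was second among the 9, behind Ctsc. The TSS window was at 28.5 and 33.1 TPM per kb (1.16, 1.01 to 1.33). The first segment of the gene had a ratio of 1.36 (1.23 to 1.50), whereas the intervals of the other 3 segments held 1. The flank was at 19.6 and 18.3 TPM per kb (0.935, 0.837 to 1.04), but it lies wholly in Th1l on the opposite strand, which ends 10 bp inside Ctsz, and the tags of the 2 genes cannot be told apart there.

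Ctsl, a strong endopeptidase of the cysteine group, lies on the minus strand of chromosome 13 (64464522 to 64471614). Its Ser5 was concentrated at the TSS, where the window held 35.4 TPM per kb untreated, 24.7 after LPS and 1.26 in the input, a ratio of LPS to untreated of 0.697 (0.604 to 0.804). Over the body the densities were 6.44, 5.84 and 0.618 TPM per kb (348, 259 and 33 tags), a ratio of 0.907 (0.769 to 1.07). Beyond the first kb 1.59 and 2.10 TPM per kb were left (74 and 80 tags; ratio 1.32, 0.948 to 1.83). The quotient of TSS window and later body was the highest of the 9 in both libraries, 22.2 (17.4 to 28.7) untreated and 11.8 (9.17 to 15.2) after LPS. With 1 tag per position and strand the body ratio of Ctsl was 1.11, so on which side of 1 it lay depended on the treatment of duplicate tags.

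Ctss, the endopeptidase that trims the invariant chain of MHC class II in antigen-presenting cells, lies on the plus strand of chromosome 3 (95330708 to 95360325). Its body held 4.81 TPM per kb untreated (1085 tags), 2.85 after LPS (528 tags) and 1.00 in the input (224 tags), a ratio of LPS to untreated of 0.593 (0.533 to 0.659). The pseudogene Hmgb1-ps5 on the same strand covers 557 bp of the body, and without these positions the ratio was 0.593 too. In the TSS window the densities were 13.8 and 14.2 TPM per kb, and the interval of their ratio held 1 (1.02, 0.832 to 1.25). The first segment was at 0.784 (0.667 to 0.919) and the others at 0.442, 0.485 and 0.534 (0.406 to 0.696). In the flank 54 and 20 tags gave 1.42 and 0.640 TPM per kb, a ratio of 0.451 (0.256 to 0.766) that was 0.640, no longer called, with a flank of 10 kb, and with 1727 of its 5000 bp in Hormad1. The shape of Ctss moved in the same way as at Ctsa, Ctsb and Ctsd, from 3.36 (2.88 to 3.91) to 6.54 (5.44 to 7.83). The share of its positions with 30-base sequence repeated in the genome was 11.7%, the highest of the 9, and with unique 30-base sequence alone the body ratio was 0.612.

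Ctsh, an aminopeptidase, lies on the plus strand of chromosome 9 (89948990 to 89970927) and had its highest Ser5 density at the TSS. The TSS window held 7.02 TPM per kb untreated, 4.40 after LPS and 0.597 in the input (107, 55 and 9 tags), a ratio of LPS to untreated of 0.626 (0.444 to 0.875). The body was at 1.26, 1.02 and 0.775 TPM per kb, and beyond the first kb at 0.658, 0.688 and 0.761 (105, 90 and 120 tags). How this later body stood to the input turned with the scaling: by library totals it was 0.865 and 0.904 of the input in untreated cells and after LPS, and scaled to tags outside the peaks 1.66 and 1.86 times the input. The last of 4 segments held 44 tags in untreated cells and 22 in the input. Neither the body (0.812, 0.651 to 1.01) nor the flank (0.546, 0.261 to 1.08) had an interval that left out 1.

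Ctsk, the collagen-cutting cathepsin of osteoclasts, lies 17423 bp upstream of Ctss in the same orientation on chromosome 3 (95303208 to 95313284). Its body held 1.12 TPM per kb untreated, 0.651 after LPS and 1.08 in the input (86, 41 and 82 tags), a ratio of LPS to untreated of 0.581 (0.390 to 0.852). It stood at 1.04 and 0.603 times the input by library totals and at 1.98 and 1.24 times scaled to tags outside the peaks. The first of 4 segments held 51 of the untreated tags and 22 of the LPS tags, and beyond the first kb the ratio was 0.840 (0.514 to 1.36). The TSS window held 6.95, 2.32 and 1.53 TPM per kb (106, 29 and 23 tags), and its ratio of 0.333 (0.213 to 0.507) called it lower there. More of this Ser5 lay upstream of the TSS than past it. The untreated bins centred 750 and 250 bp upstream held 8.14 and 8.93 TPM per kb, and those 250 and 750 bp past the TSS 7.09 and 3.68. The longest untreated peak there (95302070 to 95303318) lies mostly before the gene. The flank, with no other gene in it, was denser than the body, at 3.62 TPM per kb untreated and 0.800 after LPS (0.221, 0.138 to 0.340; input 1.27), and with a flank of 10 kb the ratio was 0.405. This came from a pair of peaks between the 2 genes, 1567 to 2367 bp and 2411 to 2785 bp past the end of Ctsk. The first held 60 tags untreated and 4 after LPS, and the second 51 and 15. In all, the untreated list had 5 peaks and the LPS list 4 in the 17423 bp between Ctsk and Ctss. Of 6 osteoclast marker genes found, Acp5 alone was at least 2 times over input in untreated cells, at 1.41 TPM per kb. The share of repeated 30-base sequence in Ctsk was 10.4%.

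**Figure D3:**
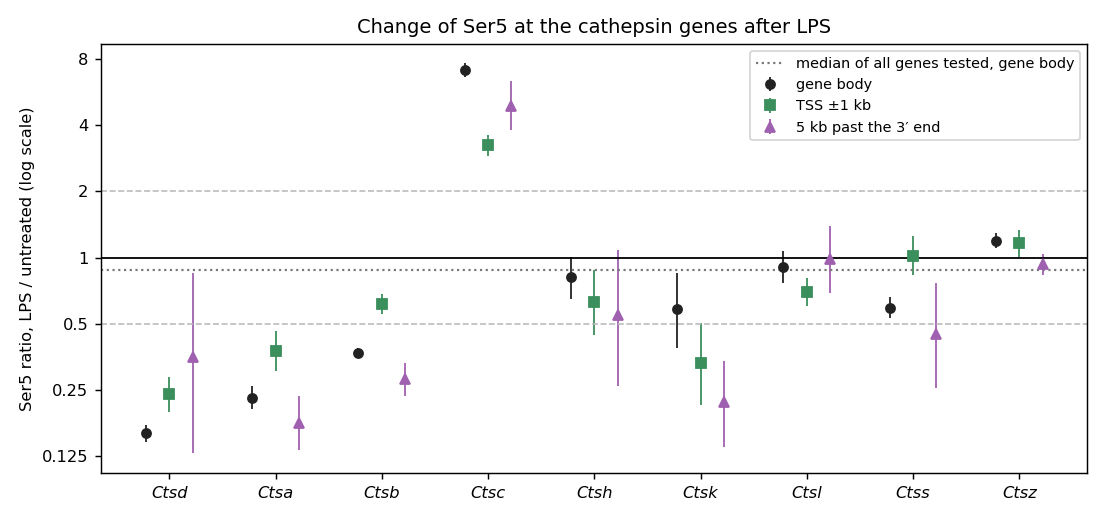
Ratio of LPS to untreated (log scale) at each cathepsin gene in the 3 regions, with 95% counting intervals, dashed lines at 2 times lower and higher and a dotted line at the median of all genes tested over the gene body (0.874). Ctsd, Ctsa and Ctsb lie below 0.5 over the body, Ctsc lies above 2 in every region, and at Ctsb, Ctsa and Ctss the body and flank lie below the TSS window.

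Region by region, 3 members were lower in the TSS window (Ctsd, Ctsk and Ctsa) and 1 was higher (Ctsc), beside 14.1% and 5.58% of the 12535 genes tested there. The median ratio was 0.626 over the 9 and 0.831 over all. In the flank 5 were lower (Ctsa, Ctsk, Ctsb, Ctsd and Ctss) and 1 was higher (Ctsc), beside 21.6% and 8.11% of 14665 genes, with medians of 0.451 and 0.784. With a flank of 10 kb 3 were lower (Ctsa, Ctsb and Ctsk), and the calls of Ctsd and Ctss were lost. Of these flanks, those of Ctsa, Ctsb and Ctsd lie inside other genes. Against the input, the bodies of 7 of 9 members were at least 2 times higher in both Ser5 libraries, all but Ctsh and Ctsk, beside 37.6% of coding genes in untreated cells and 32.9% after LPS. The median over input was 10.4 for the 9 and 1.29 for all genes tested in untreated cells, and 5.49 and 1.05 after LPS. Ratios to input depend on the scaling more than those between the Ser5 libraries: scaling to tags outside the peaks multiplies them by 1.91 (untreated) and 2.06 (LPS). Then 8 of 9 members, all but Ctsk, were at least 2 times over input, beside 55.1% and 51.8% of all genes tested. Of the markers of other cell types named above, the median stood at 0.297 and 0.301 of the input by library totals.

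By body density in untreated cells the order was Ctsb (38.0), Ctsd (34.7), Ctsa (27.0), Ctsz (14.9), Ctsl (6.44), Ctss (4.81), Ctsc (3.59), Ctsh (1.26) and Ctsk (1.12 TPM per kb). The counting intervals of neighbours in this order overlapped for Ctsh and Ctsk only, at 1.09 to 1.44 and 0.896 to 1.38. After LPS the order was Ctsc (25.4), Ctsz (17.7), Ctsb (14.0), Ctsa (6.26), Ctsl (5.84), Ctsd (5.49), Ctss (2.85), Ctsh (1.02) and Ctsk (0.651 TPM per kb). Here the intervals of Ctsa, Ctsl and Ctsd overlapped, as did those of Ctsh and Ctsk. The lead thus passed from Ctsb, Ctsd and Ctsa to Ctsc and Ctsz. Body density includes the Ser5 at the TSS, which weighs more in a short gene, and the place of Ctsl rested on it. Beyond the first kb Ctsl was at 1.59 TPM per kb untreated, below Ctss (4.12) and Ctsc (2.30). After LPS it was at 2.10 there, below Ctsa (4.60) and Ctsd (4.48). Over all coding genes the median body density was 0.420 TPM per kb untreated and 0.345 after LPS, and 1% of genes lay above 22.4 and 22.6.

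**Figure D4:**
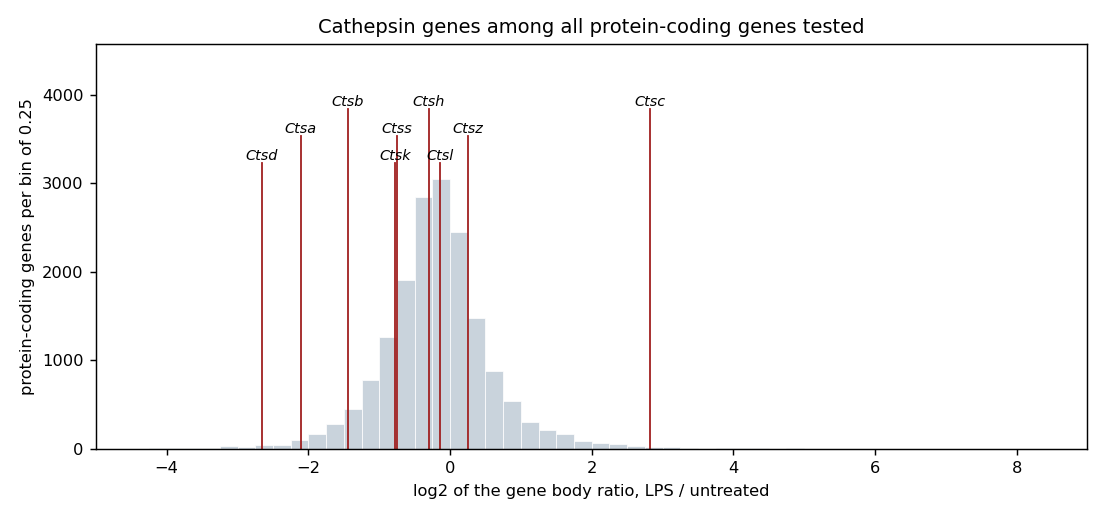
Number of protein-coding genes per bin of 0.25 in the log2 ratio of LPS to untreated over the gene body, for the 17386 genes tested, with a line at each cathepsin gene. Ctsd (-2.66), Ctsa (-2.11) and Ctsb (-1.44) stand in the lower tail, Ctsc (2.82) stands in the upper tail, and the other 5 lie within 1 of 0.

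The deposited peaks, called by the authors in each Ser5 library against the input, show the same genes as stretches of Ser5. A peak overlapped the body of all 9 members in untreated cells and of 8 after LPS, Ctsk being the exception, beside 53.3% and 50.6% of coding genes. In untreated cells peaks covered 99.5% of the body of Ctsb (23336 bp), 96.1% of Ctsa (7838 bp), 90.2% of Ctsd (15238 bp) and 85.8% of Ctsz (9903 bp), where the median coding gene with a peak was covered over 4.26% of its length. The longest untreated peaks at Ctsb (18349 bp) and Ctsd (15774 bp) were the second and the third in length of 53467 peaks. After LPS the cover of Ctsd dropped to 35.1% (5923 bp), of Ctsa to 42.4% (3460 bp) and of Ctss from 38.4% to 9.07%, while Ctsb still had 85.4% (20024 bp) in 15 peaks of at most 4215 bp. Ctsc went from 11.7% (3844 bp) to 89.4% (29318 bp), with a longest peak of 10577 bp that ranked 21st of 49371 after LPS. Ctsz kept 79.8%, and Ctsh stayed at 2.55% and 2.73%. Ctsl went from 5.50% to 16.7% with a body ratio of 0.907. With peaks of a score of at least 100 alone, several of the smaller covers shrank: Ctsa to 1655 bp, Ctsd to 3723 bp, Ctss to 1145 bp and Ctsl to 666 bp after LPS, and Ctsc to 1109 bp and Ctsk to 111 bp in untreated cells. Whether a stretch passes as a peak depends on the depth and the tag length of each library, which differed.

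**Figure D5:**
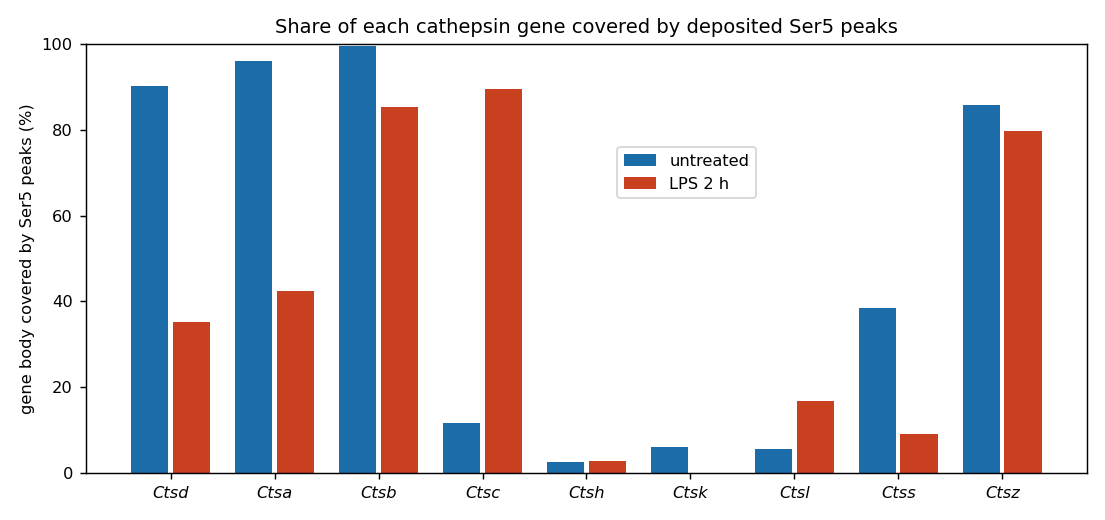
Share of each gene body (%) covered by the deposited Ser5 peaks in untreated cells and after LPS. Ctsa, Ctsb, Ctsd and Ctsz are covered over at least 85.8% of their length in untreated cells, Ctsc over 89.4% after LPS, and Ctsk has no peak after LPS.

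Other genes of the same system were counted as named lists. Beside every list below stand the shares over all 17386 genes tested. By the same rule 11.3% of these were lower over the body and 5.83% were higher, with a median ratio of 0.874. Of 20 genes of lysosomal membrane proteins, enzymes and proton pump subunits, 9 were lower over the body, none was higher, and the median ratio was 0.558, close to that of the 9 cathepsins. The lowest was Man2b1, lysosomal alpha-mannosidase, at 5.15 and 1.23 TPM per kb (0.239, 0.195 to 0.291), and the highest Npc2, the cholesterol carrier, at 7.01 and 11.7 (1.67, 1.54 to 1.81). Cd63, a lysosomal membrane protein, had the highest untreated density of this list, 9.90 TPM per kb, and 4.80 after LPS (0.485, 0.388 to 0.603). Of 10 genes of sorting and activation (receptors and enzymes of the mannose 6-phosphate route, Sort1, Psap and Lgmn, with Neu1 and Glb1, the partners of Ctsa), 4 were lower and none was higher, with a median of 0.577. Among these, Psap, whose product is cut into the saposins, had the highest density and the lowest ratio, 22.3 and 4.33 TPM per kb (0.194, 0.179 to 0.210). Of the 2 mannose 6-phosphate receptors, Igf2r was at 0.290 (0.256 to 0.329), and M6pr was at 1.71 (1.40 to 2.08), the highest of the list. Legumain (Lgmn) was at 0.395 (0.335 to 0.463) and sortilin (Sort1) at 0.376, with a body at 0.735 of the input in untreated cells by library totals and 1.41 times the input scaled to tags outside the peaks.

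The MiT/TFE factors, which bind the E-box letters found at Ctsb and Ctsd, were split. Tcfeb, the name of Tfeb in this annotation, was at 2.87 TPM per kb untreated and 0.806 after LPS (0.281, 0.245 to 0.320), with 0.820 in the input. Tcfe3 had the highest density of the 4, 6.87 and 6.26 TPM per kb (0.911, 0.809 to 1.03). Mitf went from 1.45 to 4.32 TPM per kb (2.98, 2.84 to 3.12), with 0.808 in the input. Tcfec went from 0.557 to 1.53 (2.74, 2.38 to 3.17), and its untreated density was at the level of the input, 0.569. By the 2-fold rule 1 of the 4 was lower and 2 were higher.

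Of 11 genes of cathepsin inhibitors 7 had enough tags, none was lower and 1 was higher, with a median ratio of 0.932. Cstb (stefin B, the cytosolic inhibitor) had the highest density, 32.9 TPM per kb untreated and 30.7 after LPS (0.932, 0.813 to 1.07), and Cst3 (cystatin C, the secreted one) was at 10.5 and 14.1 (1.35, 1.15 to 1.57). The one called higher, Serpina3g (3.41, 1.16 to 12.1), lay at 0.115 and 0.393 TPM per kb, with 0.210 in the input. Of the 14 other cathepsin genes counted 5 had enough tags over the body. By library totals Ctsw alone was at least 2 times over input in untreated cells, at 3.06 TPM per kb and a ratio of LPS to untreated of 1.01 (0.712 to 1.43). Its flank was denser than its body, at 8.30 TPM per kb untreated and 7.74 after LPS. Whether tags over Ctsw came from a neighbouring gene was not tested. Scaled to tags outside the peaks, the body of Ctso was at 2.15 times the input in untreated cells too. Ctso, at 0.637 and 0.882 TPM per kb over its body (1.39, 1.07 to 1.79), had 83 tags in its TSS window untreated, 109 after LPS and 11 in the input, beside 107, 55 and 9 at Ctsh. The 1 called lower, Cts6, had 10 tags and 0 tags, and its input density of 0.257 TPM per kb was above both.

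The gene outside the 9 most like each member was found from the log2 densities of body, TSS window and flank in both Ser5 libraries, 6 values in all, by their distance. It was Apobec1 for Ctsa (distance 0.59), the macrophage scavenger receptor gene Cd68 for Ctsb (0.72), Rgs2 for Ctsd (1.09) and Parp14 for Ctsc (1.05). Cd68 held 41.7 TPM per kb over its body in untreated cells and 11.0 after LPS, and Parp14 3.89 and 22.4. For the members that changed less it was Ninj1 for Ctsz (0.58), Ppib for Ctsl (0.46), 1300018I17Rik for Ctss (0.37), Uxt for Ctsh (0.26) and Umps for Ctsk (0.86).

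The scale of the libraries bears on every ratio. Of the tags, 50.1% of untreated Ser5 and 53.7% of Ser5 after LPS lay in the peaks of either list, and scaling to the tags outside them multiplies each ratio of LPS to untreated by 1.08. The median over all genes tested was then 0.941, with 8.97% lower and 6.85% higher, and the same number of cathepsin genes, 3 lower and 1 higher, was called over the body. Repeated 30-base sequence, to which the shorter LPS tags cannot be mapped uniquely, made up 0.545% (Ctsd) to 11.7% (Ctss) of the bodies, and with unique 30-base positions alone the ratios were 0.159 at Ctsd, 0.231 at Ctsa, 0.370 at Ctsb and 7.18 at Ctsc.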

How the data were processed

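Ser5 ChIP-Seq of untreated and LPS-treated macrophages and input DNA, 1 library each, were analysed here, starting from the tag positions and peaks in the files. The authors trimmed the reads, aligned them to mm9 with Bowtie, kept those with a unique match, and ran MACS on either Ser5 library, with the input as control and 1e-05 as its p-value limit. The versions of these tools are not given in the sources used here. The deposited tag files hold 1 line per aligned tag with its position and strand, duplicates included, and the counts were made from them. The score in the deposited peak lists is 10 times minus log10 of the MACS p-value, and was used only to select peaks in an alternative.

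Libraries were mapped to conditions by the sample labels. Tags on chromosomes 1 to 19 and X were counted by their 5′ end over the 22350 protein-coding gene records of GENCODE M1 on mm9, without regard to strand, so overlapping and antisense genes cannot be told apart. Depth was 7616771 (untreated), 6249819 (LPS) and 7533308 (input) tags, of which 84.5%, 81.4% and 82.7% were at distinct positions and strands. Counting intervals are exact Poisson intervals for densities and exact conditional intervals for ratios, at 95%. PCR copies are not independent molecules, so the intervals cover counting error only. For ratios over all genes, 0 tags were set to 0.5. With 1 library per condition no test, pairing or replicate check was possible, and a gene was called at a ratio of at least 2 or its inverse where the Ser5 libraries together held at least 10 tags. For likeness, 0.1 was added to the densities before taking log2, and the distance was Euclidean.

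The 9 members, the gene lists and the rules were chosen with earlier results of these data known. The text names all members, their overlapping and most alike genes, and of the pathway lists the highest and lowest ratio and the highest density. Further genes of the lists (Igf2r, Lgmn, Sort1, Cst3, Ctso, Ctsw, Cts6, the MiT/TFE factors and the markers) were named after their values were seen. Older gene symbols were matched through synonyms in the RefSeq gene table. The alternatives were scaling to tags outside the peaks, duplicate tags counted once, 5′ ends moved 75 bp, the longest coding transcript, positions in other genes left out, unique 30-base positions, other filters and window sizes, and peaks with a score of at least 100. Python 3.11.15, numpy 2.4.6, pandas 2.3.3, scipy 1.17.1, numba 0.67.0 and matplotlib 3.10.9 were used. Counting, overlap, interval and repeat functions were tested on simulated data.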

Additional observations from a re-analysis of the deposited data

How the results depend on the processing

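The number of cathepsin genes called over the gene body, 3 lower and 1 higher, was the same under every alternative run, the median ratio of the 9 lay between 0.592 and 0.840, the latter without the first kb of each gene, and 7 members were at least 2 times over input, 8 when scaled to tags outside the peaks. Among single values, scaling to tags outside the peaks moved Ctsb to 0.397 and Ctsc to 7.63, 1 tag per position and strand moved Ctsb to 0.397 and Ctsl to 1.11, and a flank of 10 kb moved Ctsc to 3.51 and Ctsk to 0.405 and ended the calls of Ctsd (0.742) and Ctss (0.640), so that 3 members in place of 5 were lower there. The flank of Ctsd was at 0.145 past its longest coding transcript. The covers that changed with a peak score of at least 100 are given with the peaks above. With positions of other genes left out, the flanks of Ctsa, Ctsb, Ctsd and Ctsz could not be measured. No paired analysis was possible because each condition has 1 library, and none could be left out. Depth limits Ctsk and Ctsh most, whose bodies held 41 to 210 tags in a Ser5 library.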
